A study of Mus musculus with 8 samples.

Results

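The transcription factor genes Zeb1 and Zeb2, the ligand gene Tgfb3 and the receptor gene Tgfbr1 were described in mouse mammary tumours from the 2 groups of the study, SKI-606 and vehicle. They were taken by the gene number in the array's probe identifiers, which gave 6 probes for 4 genes among 24611 probes on the array, and 4 of the 6 probes, 1 per gene, were detected on all 8 arrays. The female mice were FVB/N-Tg(MMTV-PyVT)634Mul/J and belong to the MMTV-PyVmT model, in which a viral promoter active in mammary epithelium drives the polyoma middle T antigen, a viral oncoprotein that acts through Src family kinases. All mice of both groups carried this transgene. Tumours of 4 arrays came from mice given SKI-606, the Src and Abl kinase inhibitor bosutinib, by gavage at 100 mg/kg, and tumours of the other 4 from mice given vehicle. No source used here gives the ages of the mice or the length of treatment. The title of the series names differentiation of the tumours by the drug as its subject.

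Zeb1 and Zeb2 are zinc finger and homeodomain proteins that bind E-box sequences and repress genes of epithelial junctions and polarity, and in mammary tissue they are known mainly from stromal cells and from epithelial cells in epithelial-mesenchymal transition. Tgfb3 encodes a TGF-beta ligand, which in the mammary gland is known for its induction in involution. Tgfbr1 encodes the type I receptor, a kinase that joins the type II receptor on ligand binding and phosphorylates Smad proteins, and this signal is a known inducer of the Zeb genes.

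The start regions of Zeb2 and Tgfbr1 are shown because these genes encode a factor and the receptor of the same pathway. They were taken from RefSeq on GRCm38.p6 and run from 250 bases before to 50 bases after an annotated start. Capitals mark the GC box GGGCGG or its reverse complement CCGCCC, and the Smad element CAGAC or its reverse complement GTCTG. The region chr2:45110228-45110527 on the minus strand holds the last of 4 annotated Zeb2 starts, and chr4:47352972-47353271 and chr4:47385966-47386265 on the plus strand hold the first and second Tgfbr1 starts.
Zeb2, start 4: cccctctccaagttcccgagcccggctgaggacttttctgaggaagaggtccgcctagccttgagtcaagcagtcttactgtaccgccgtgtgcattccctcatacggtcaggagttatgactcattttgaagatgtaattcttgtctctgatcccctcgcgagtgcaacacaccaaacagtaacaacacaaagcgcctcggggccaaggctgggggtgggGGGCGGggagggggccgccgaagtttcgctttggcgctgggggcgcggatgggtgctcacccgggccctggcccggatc
Tgfbr1, start 1: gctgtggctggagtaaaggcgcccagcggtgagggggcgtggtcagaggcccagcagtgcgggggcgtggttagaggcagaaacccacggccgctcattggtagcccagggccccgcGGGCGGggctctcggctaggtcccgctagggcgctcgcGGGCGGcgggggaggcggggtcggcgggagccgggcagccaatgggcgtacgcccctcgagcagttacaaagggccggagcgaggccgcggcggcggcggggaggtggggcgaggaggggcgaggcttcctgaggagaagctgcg
Tgfbr1, start 2: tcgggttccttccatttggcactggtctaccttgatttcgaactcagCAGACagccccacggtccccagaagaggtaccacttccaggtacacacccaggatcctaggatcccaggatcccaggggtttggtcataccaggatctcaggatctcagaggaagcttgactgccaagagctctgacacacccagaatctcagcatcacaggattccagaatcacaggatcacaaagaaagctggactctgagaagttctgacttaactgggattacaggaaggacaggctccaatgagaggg
The Zeb2 window held 1 GC box, the first Tgfbr1 window 2 GC boxes and the second Tgfbr1 window 1 Smad element. Windows at Zeb2 starts 2 and 3, which overlap each other, also held 1 GC box each, and that at start 1 held neither motif. None of the 6 windows held the Zeb E-box letters CACCTG or CAGGTG, which were found in 20.2% of 32851 promoter windows of the same length. The GC box was found in 35.7% of them and the Smad element in 49.6%. Both strands were read, and no match in these windows overlapped another.

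Mean signals of the 8 arrays lay between 300.3 and 419.6, lowest in SKI-606 replicate 1 and next lowest in vehicle replicate 4 at 313.0, and 11837 to 12578 probes were detected per array. A source name that speaks of human islet cells is attached to replicate 2 of the SKI-606 group, whose title names a tumour of that group, so values without it are given below. SKI-606 tumours lay at the first positions of 1 chip and vehicle tumours at the last, so that position and group cannot be told apart. The labels do not state that each array is a separate animal, and p-values therefore measure only the spread between these samples, which may be technical. With 4 arrays a group, precision is set by their number. The luminal keratin genes Krt8, Krt18 and Krt19, which define this epithelium, were measured in both groups. Normalized signals below are on a log2 scale with an offset that makes differences of dim probes smaller, and a level of 1 probe cannot be compared with that of another.

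The 4 genes were chosen because earlier results of the same comparison had shown higher signals in SKI-606 tumours, so their differences between the groups are a description and carry no test. Of 12281 probes kept (detected on at least 4 arrays), 0.00814% passed an adjusted p of 0.05 with limma, 1 probe in all and none of these genes. Without adjustment 6.04% of kept probes passed 0.05 as higher and 10.3% as lower in SKI-606 tumours, and 47.4% had a difference above 0. SKI-606 tumours lay above every vehicle tumour for 2 of the 4 genes, Zeb1 and Zeb2, and for 3.76% of all kept probes, and nothing can be read from that count since this contrast chose the genes.

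Zeb1, the first of the repressors, had deposited signals of 109.9, 184.4, 214.3 and 164.6 in SKI-606 replicates 1 to 4 and of 130.5, 132.4, 136.5 and 104.2 in vehicle replicates 1 to 4. Before normalization the groups overlapped, with the 2 lowest values on the 2 dimmest arrays. Normalized log2 signals were 6.87, 7.12, 7.52 and 6.98 in SKI-606 and 6.68, 6.54, 6.74 and 6.73 in vehicle tumours, and the groups did not overlap. Replicate 3 of the drug group was the highest tumour and vehicle replicate 2 the lowest. The means were 7.12 ± 0.28 and 6.67 ± 0.09 (SD, n = 4), a difference of 0.45 ± 0.14 (SE) or 1.37-fold. Without SKI-606 replicate 2 the Zeb1 difference was 0.45, and without replicate 3 it was 0.32. An array probe whose identifier carries the same digits without padding was not counted as Zeb1, since unpadded numbers are not gene numbers here (10.3% met a gene).

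Zeb2, the paralogue with the same domain plan, had 2 probes. Its detected probe read 125.1, 213.6, 137.7 and 179.1 before normalization in SKI-606 replicates 1 to 4, and 127.5, 163.1, 106.9 and 80.1 in vehicle replicates 1 to 4. After normalization the values were 7.05, 7.37, 6.86 and 7.10 in SKI-606 tumours and 6.65, 6.76, 6.48 and 6.44 in vehicle tumours. All 4 drug values lay above the vehicle values, the closest pair being SKI-606 replicate 3 and vehicle replicate 2. The means of 7.10 ± 0.21 and 6.59 ± 0.15 differed by 0.51 ± 0.12, or 1.42-fold, and by 0.42 without SKI-606 replicate 2, the highest tumour. The other Zeb2 probe was detected on 0 of 8 arrays, with signals between 36.1 and 42.0, so it gave no measure of the gene in either group.

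The order of the drug tumours differed between the repressors. SKI-606 replicate 3 was the highest tumour for Zeb1 and the lowest of its group for Zeb2, while replicate 2 was the highest for Zeb2 and near the group mean for Zeb1. When each group's mean was subtracted, which removes the difference that chose the genes, Zeb1 and Zeb2 had a Pearson r of -0.52 over the 8 tumours (exact permutation within groups, two-sided, p = 0.33, adjusted p = 0.869 over 6 pairs of genes) and a Spearman rho of -0.57 (exact p = 0.177, adjusted p = 0.696). Without the 2 tumours farthest from the Zeb1 median, SKI-606 replicates 1 and 3, r was -0.43. Within the groups the factors were therefore not shown to vary together or in opposition.

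Tgfb3, the ligand gene, read 749.8, 1425.3, 1838.9 and 2242.6 before normalization in SKI-606 replicates 1 to 4 and 1013.7, 1148.4, 1099.9 and 880.2 in vehicle replicates 1 to 4. The normalized values were 9.98, 10.38, 10.75 and 10.995 in SKI-606 tumours and 9.83, 9.87, 9.93 and 9.99 in vehicle tumours. Replicates 2, 3 and 4 of the drug group lay above every vehicle tumour, and replicate 1 lay within the vehicle range. The means of 10.53 ± 0.45 and 9.91 ± 0.07 differed by 0.62 ± 0.21 or 1.54-fold, and by 0.67 without SKI-606 replicate 2. The difference was 0.80 without SKI-606 replicate 1 and 0.46 without replicate 4, the highest tumour.

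The spread of Tgfb3 among drug tumours was 6.61 times that among vehicle tumours (ratio of SDs, n = 4 each). Ratios were above 1 for 66.4% of all kept probes, with a median of 1.39, and 2.83% of kept probes had a higher ratio than Tgfb3. For Zeb1 the ratio was 3.20, which 13.2% of kept probes exceeded, for Tgfbr1 it was 1.79 and for Zeb2 it was 1.39, the median of all probes. The ligand and Zeb1 thus had near-equal levels in the vehicle tumours and unequal ones in the treated tumours, a description with no test.

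Tgfbr1, the type I receptor gene, had the smallest difference of the 4. Its detected probe read 1350.6, 2168.8, 2055.5 and 2413.0 before normalization in SKI-606 replicates 1 to 4 and 2003.9, 1973.0, 1985.9 and 1442.4 in vehicle replicates 1 to 4. Normalized values were 10.80, 11.01, 10.91 and 11.12 in SKI-606 tumours against 10.86, 10.70, 10.82 and 10.73 in vehicle tumours. The groups overlapped, with SKI-606 replicate 1 below vehicle replicates 1 and 3. The means of 10.96 ± 0.14 and 10.77 ± 0.08 differed by 0.19 ± 0.08 or 1.14-fold, by 0.17 without SKI-606 replicate 2, and by -0.03 with median scaling of the arrays. Its second probe, with signals between 37.1 and 48.0, was detected on 0 of 8 arrays. The 4 detected probes had detection p-values of at most 0.00608 on every array, the highest being for Zeb2.

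**Figure D1:**
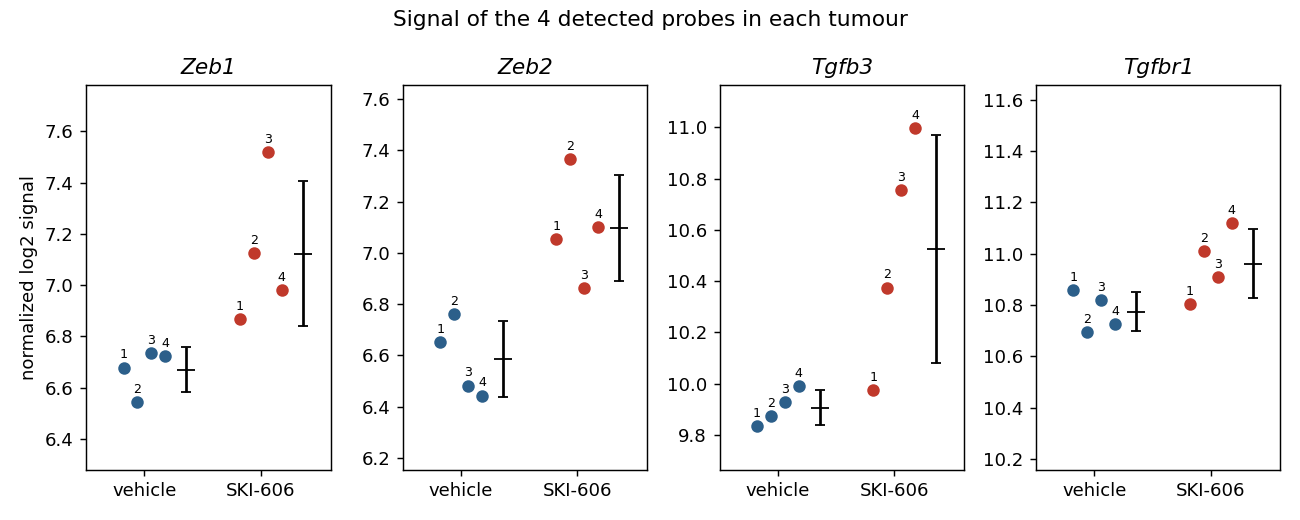
Normalized log2 signal (vertical axis, 1.5 units in each panel) of the detected probe of each gene in the vehicle (blue) and SKI-606 (red) tumours, with the replicate number above each point and the group mean ± SD (n = 4) in black. Red points lie above all blue points for Zeb1 and Zeb2, and SKI-606 replicate 1 lies within the vehicle range for Tgfb3 and Tgfbr1.

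The difference depended on how arrays were put on a common scale. With each array scaled to the same median in place of equal quantiles, the Tgfbr1 difference turned to -0.03, and those of Zeb1, Zeb2 and Tgfb3 were smaller at 0.28, 0.33 and 0.39. The median of all kept probes moved to -0.12 under that scaling, and relative to it the differences were 0.40 for Zeb1, 0.45 for Zeb2, 0.51 for Tgfb3 and 0.09 for Tgfbr1. SKI-606 tumours above all vehicle tumours then numbered 3 for Zeb1, 2 for Zeb2, 3 for Tgfb3 and 1 for Tgfbr1. With quantile normalization without background correction, with cyclic loess and in the authors' own normalized values, the 4 drug tumours lay above all vehicle tumours for Zeb1 and for Zeb2.

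**Figure D2:**
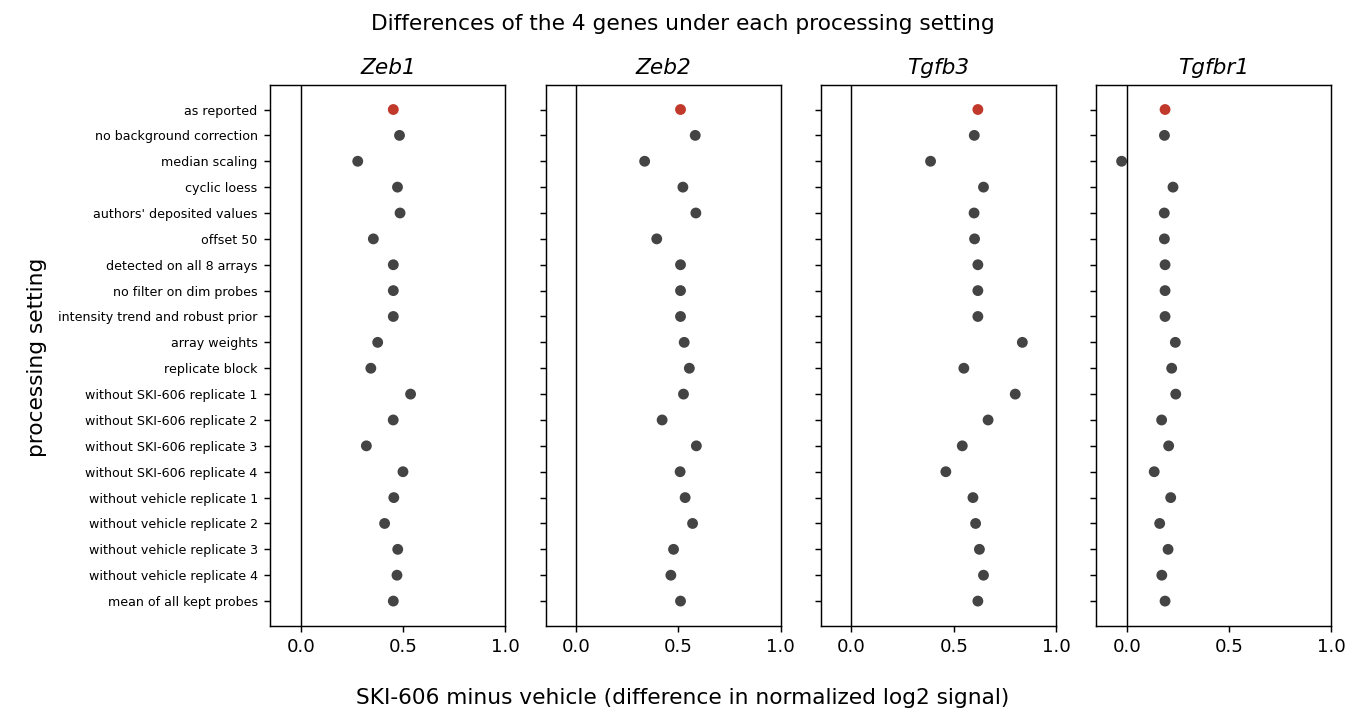
Difference between SKI-606 and vehicle tumours in normalized log2 signal (horizontal axis) for each gene under each processing setting (vertical axis), with the reported setting in red. Points lie to the right of 0 in each setting for Zeb1, Zeb2 and Tgfb3, while Tgfbr1 lies at -0.03 with median scaling.

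Within the groups, none of the 6 pairs of genes was correlated after adjustment. The highest coefficient was that of the ligand and its receptor, with a Pearson r of 0.64 for Tgfb3 and Tgfbr1 (exact permutation within groups, two-sided, p = 0.283, adjusted p = 0.869) and a Spearman rho of 0.33 (exact p = 0.476, adjusted p = 0.696). It rested on SKI-606 replicates 1 and 4, and r was -0.58 without them. For Zeb1 and Tgfb3 r was 0.43 (exact p = 0.63, adjusted p = 0.869) with rho at 0.40 (exact p = 0.497, adjusted p = 0.696), and r was -0.51 without SKI-606 replicates 1 and 3.

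Among other ligands and latency proteins of the TGF-beta family, no gene changed past the adjusted threshold. Of 20 listed genes besides Tgfb3, 9 were measured, 5 higher and 4 lower in SKI-606 tumours (4 and 5 with median scaling), with a median difference of 0.18 against -0.01 over all kept probes. By limma 0 of them passed an unadjusted p of 0.05 either. Tgfb2, which encodes another TGF-beta, differed by 0.94 ± 0.56 (log2 difference ± SE; limma adjusted p = 0.469). It read between 9.64 and 10.56 in SKI-606 tumours, and 7.36 in vehicle replicate 4 against 9.42 to 9.88 in the other vehicle tumours. The latent TGF-beta binding protein genes Ltbp1, Ltbp2 and Ltbp3, whose products hold the ligand in the matrix, were at -0.07 ± 0.28, -0.37 ± 0.35 and -0.12 ± 0.14 (adjusted p = 0.929, 0.67 and 0.754). Nrros, which anchors latent TGF-beta on myeloid cells, was at 0.31 ± 0.14, the latency-activating integrin gene Itgav at 0.18 ± 0.10 and the activator gene Thbs1 at -0.20 ± 0.09 (limma adjusted p = 0.333, 0.437 and 0.338). Thbs1 averaged 6.03 in SKI-606 and 6.23 in vehicle tumours, close to 6.04, the average of the dimmest kept probe, so its difference says little. The median of these ligand genes was -0.08 with median scaling and also -0.08 without SKI-606 replicate 2. Tgfb1 had no probe named here.

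Among 14 other receptors and receptor-binding proteins, 7 were measured and 0 passed. Without adjustment 1 passed as higher, against 6.04% of all kept probes. At a median of 0.085, 6 were higher and 1 lower, or 2 higher and 5 lower with median scaling. The type II receptor gene Tgfbr2, which Tgfb3 binds first, was at 0.00 ± 0.05 (limma adjusted p = 0.978). Its means were 6.11 ± 0.06 under the drug and 6.11 ± 0.03 under vehicle (SD, n = 4). Both lay close to 6.04, the average of the dimmest kept probe, so the value says little about a change of Tgfbr2. Acvr2a averaged 6.15 in SKI-606 and 6.11 in vehicle tumours, and Amhr2 6.12 and 6.14. Their directions, which enter the counts of this list, say as little. Eng, the endothelial co-receptor endoglin, was at 0.41 ± 0.13 (adjusted p = 0.2), with 6.95 to 7.58 in SKI-606 and 6.73 to 6.97 in vehicle tumours. Tgfbrap1, whose product binds the receptors, was at 0.14 ± 0.07 and the activin and BMP receptor gene Acvr1 at 0.18 ± 0.15 (adjusted p = 0.346 and 0.627).

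Of 16 listed Smads and adaptors 5 were measured and 0 passed. Without adjustment Dab2 passed as higher (6.04% of all kept probes) and Trim33 as lower (10.3%). The list had 2 higher and 3 lower, or 1 and 4 with median scaling. Its median was -0.04 (0.01 with cyclic loess, and -0.10 without SKI-606 replicate 4). Smad4, the shared partner of receptor-activated Smads, was at -0.20 ± 0.09 (limma adjusted p = 0.346). Dab2, an endocytic adaptor that binds TGF-beta receptors and Smads, was at 1.18 ± 0.36 (adjusted p = 0.197), the groups not overlapping, with 12.38 in SKI-606 replicate 1 and 10.70 to 10.96 in the other drug tumours. Trim33, a ubiquitin ligase that binds Smad4 and activated Smads, was at -0.47 ± 0.11 (adjusted p = 0.146), again without overlap, but its 2 other kept probes were at 0.12 and -0.52. Non-overlapping values occurred for 3.76% of all kept probes as higher and for 7.42% as lower.

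Inhibitors of the pathway numbered 8 measured of 23 listed, and 0 passed. Without adjustment 1 passed as higher, against 6.04% of all kept probes. With 5 higher and 3 lower (2 and 6 with median scaling), the median was 0.06. This median was -0.04 without SKI-606 replicate 3 and -0.02 without vehicle replicate 2. Decorin, a matrix proteoglycan that binds TGF-beta and also marks fibroblasts, was at 0.90 ± 0.33 for its gene Dcn (limma adjusted p = 0.244). The phosphatase genes Ppm1a and Ctdsp1, whose products remove phosphates from Smads, were at -0.10 ± 0.08 and -0.07 ± 0.07 (adjusted p = 0.581 and 0.679). The ubiquitin ligase gene Smurf1, which targets the receptor, was at 0.03 ± 0.12 and the repressor gene Ski at -0.04 ± 0.06 (limma adjusted p = 0.933 and 0.806). Ski averaged 6.14 in SKI-606 and 6.17 in vehicle tumours, close to the dimmest kept probe at 6.04, so its difference says little.

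Among genes known as targets of TGF-beta, 10 of 25 were measured and 0 passed. Without adjustment 1 passed as higher, against 6.04% of all kept probes. At a median of 0.26, 8 were higher and 2 lower, while 47.4% of all kept probes had a difference above 0. With median scaling 7 were higher at a median of 0.09. The median was 0.49 without SKI-606 replicate 4, 0.16 without SKI-606 replicate 2 and 0.15 without vehicle replicate 3. Angptl4, a secreted inhibitor of lipoprotein lipase, was at 1.10 ± 0.44 (limma adjusted p = 0.278). The collagen genes Col3a1, Col1a1 and Col1a2 were at 1.11 ± 0.80, 0.42 ± 0.32 and 0.15 ± 0.08 (adjusted p = 0.559, 0.583 and 0.386), and Col3a1 read 6.66 in vehicle replicate 4 against 9.41 to 10.60 in the other vehicle tumours. Acta2, the smooth muscle actin of myofibroblasts, was at 0.16 ± 0.12, the transcription factor gene Junb at 0.24 ± 0.30 and the differentiation inhibitor Id3 at 0.52 ± 0.60 (limma adjusted p = 0.588, 0.76 and 0.736). The collagen genes named here are counted again among the fibroblast markers below, and Acta2 among the pericyte and basal markers. Eng is counted among both the receptors and the endothelial markers, and Dcn among both the inhibitors and the fibroblast markers. These lists are therefore not separate evidence. The periostin gene Postn was detected on no array.

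**Figure D3:**
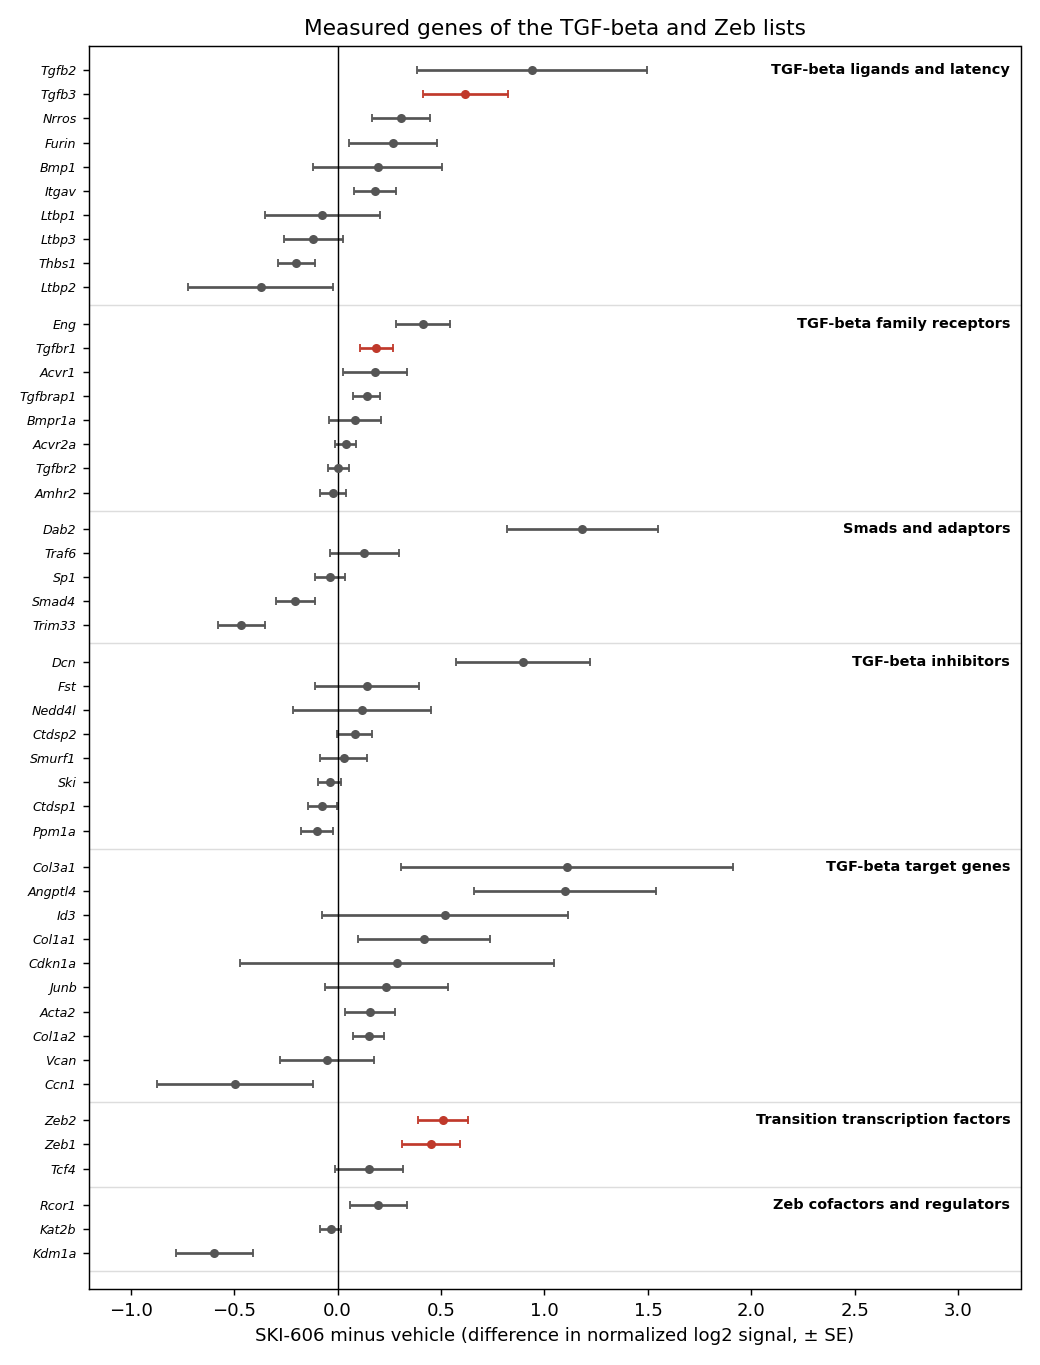
Difference between SKI-606 and vehicle tumours in normalized log2 signal with its SE (horizontal axis) for each measured gene (vertical axis) of the TGF-beta and Zeb lists, grouped by role, with Zeb1, Zeb2, Tgfb3 and Tgfbr1 in red. Differences lie on both sides of 0 among the ligands, Smads, inhibitors and cofactors.

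Of 15 other transition factors only Tcf4, an E-protein, was measured, at 0.15 ± 0.16 (limma adjusted p = 0.714), and at -0.05 with median scaling. Probes of Prrx1 and Klf8 were among those on the array but not detected on enough arrays, and Snai1, Snai2, Twist1 and Twist2 had no probe named here. Among cofactors and regulators of the Zeb factors 3 of 23 listed were measured, all of them cofactors. The listed regulators, among them Grhl2, Ovol1 and Ovol2, had no probe named here. Of the 3 measured 0 passed, with 1 higher, or 0 with median scaling. Without adjustment 1 passed as lower, against 10.3% of all kept probes. Kdm1a, a histone demethylase of the CtBP complex through which the Zeb proteins repress, was at -0.59 ± 0.19 (adjusted p = 0.199), with 9.55 to 10.41 in SKI-606 and 10.30 to 10.68 in vehicle tumours. Its partner gene Rcor1 was at 0.20 ± 0.14 and the acetyltransferase gene Kat2b at -0.03 ± 0.05 (limma adjusted p = 0.542 and 0.803). Kat2b averaged 6.08 in SKI-606 and 6.11 in vehicle tumours, close to the dimmest kept probe at 6.04, so its difference says little.

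Epithelial genes that Zeb factors are known to repress showed no common direction. Of 34 listed, 12 were measured and 0 passed, with 6 higher and 6 lower, or 3 and 9 with median scaling. Without adjustment 1 passed as higher, against 6.04% of all kept probes. The list median was -0.01, which is also the median of all kept probes. It ran from -0.06 to 0.05 with 1 array left out. Cldn4, a tight junction claudin, was at -0.82 ± 0.47 (limma adjusted p = 0.45), the protease gene St14 at 0.23 ± 0.08 and its inhibitor gene Spint1 at -0.16 ± 0.07 (adjusted p = 0.235 and 0.331). Cdh1, Crb3, Epcam and Esrp1 had no probe named here.

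Markers of stromal cells had higher values in SKI-606 tumours as well, though none passed the test. In bulk RNA, more cells of a type and more RNA per cell cannot be told apart. Of 24 fibroblast markers 9 were measured, 8 of them higher, at a median difference of 0.44 and 0.41 without SKI-606 replicate 2. Their summed normalized signal was 13654 to 17230 in SKI-606 and 7427 to 11213 in vehicle tumours. Groups did not overlap for 3, against 3.76% of all kept probes with SKI-606 higher: the collagen VI genes Col6a1 at 0.44 ± 0.10 and Col6a3 at 0.58 ± 0.14 and the fibulin gene Fbln1 at 1.08 ± 0.27 (limma adjusted p = 0.122, 0.144 and 0.148). Col5a2 and Postn were detected on no array.

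Of 22 endothelial markers 6 were measured, all higher, at a median of 0.53 and 0.50 without SKI-606 replicate 2, with sums of 1558 to 2257 in SKI-606 and 1047 to 1350 in vehicle tumours. Groups did not overlap for 4 of the 6 (3.76% of all kept probes), among them Robo4, a receptor of vessel stability, at 0.71 ± 0.14, the vessel matrix gene Mmrn2 at 0.60 ± 0.14 and the sialomucin gene Emcn at 0.55 ± 0.16 (limma adjusted p = 0.113, 0.142 and 0.182). Erg was detected on no array. By limma 0 fibroblast and 0 endothelial markers passed over all probes, and 4 and 5 did as higher without adjustment, against 6.04% of all kept probes. With median scaling their medians were 0.23 and 0.31. The part of these cells in the Zeb1, Zeb2, Tgfb3 and Tgfbr1 differences was not tested.

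Markers of other cell types had differences in both directions. Of 7 macrophage markers measured of 18, 1 was higher and 6 lower (median -0.13, and -0.26 without SKI-606 replicate 2), with sums of 3021 to 5177 in SKI-606 and 4072 to 4498 in vehicle tumours and with Itgam and Msr1 detected on no array. The 3 adipocyte markers measured of 14 were higher at a median of 0.85, with sums of 2563 to 9247 and 2233 to 3625 and Fabp4 detected on no array. This median was 1.37 without SKI-606 replicate 2, 0.56 without SKI-606 replicate 4, 0.57 without vehicle replicate 1 and 1.64 with array weights. Of 8 luminal markers measured of 15, 4 were higher (median 0.04, and -0.15 with median scaling), with sums of 14287 to 24455 and 17594 to 21475. Groups did not overlap for Prom1, the gene of the membrane protein prominin, at -1.67 ± 0.40 and for the oestrogen receptor gene Esr1 at 0.31 ± 0.12 (limma adjusted p = 0.142 and 0.265). Of 6 basal markers measured of 12, 4 were higher and 2 lower (median 0.21, and 0.09 without vehicle replicate 4), or 3 and 3 with median scaling (median 0.05), with sums of 3050 to 6301 and 2657 to 5098 and Cnn1 detected on no array. Groups did not overlap for the myosin kinase gene Mylk at 0.47 ± 0.19 and the integrin gene Itgb4 at 0.31 ± 0.08 (limma adjusted p = 0.283 and 0.161). Over all kept probes 3.76% did not overlap as higher and 7.42% as lower. The only pericyte marker measured of 12 was Acta2, and the 2 lymphocyte markers measured of 17, Cd3e and Igkc, were at 0.18 ± 0.11 and 1.47 ± 0.69 (limma adjusted p = 0.501 and 0.35). By limma 0 genes of these lists passed over all probes. Without adjustment 1 macrophage, 1 adipocyte, 1 luminal and 2 basal markers passed as higher (6.04% of all kept probes) and 1 luminal marker as lower (10.3%).

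**Figure D4:**
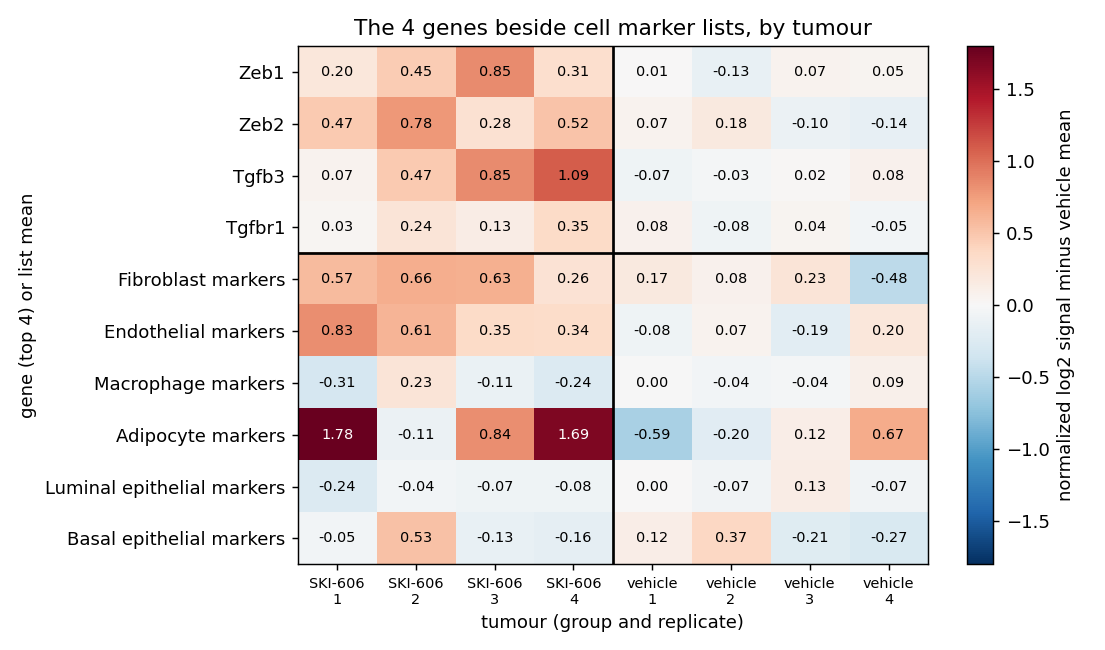
Normalized log2 signal minus the vehicle mean (colour and printed value) in each tumour (columns, by group and replicate) for the 4 genes and for the mean of each marker list with at least 3 measured genes (rows). Fibroblast and endothelial rows are above the highest vehicle value in each SKI-606 tumour. The closest fibroblast values are 0.26 in SKI-606 replicate 4 and 0.23 in vehicle replicate 3. SKI-606 replicate 2 is the highest tumour for the fibroblast mean and for Zeb2, replicate 1 for the endothelial mean, replicate 3 for Zeb1 and replicate 4 for Tgfb3.

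Tumour by tumour, the fibroblast mean shared its highest tumour with Zeb2, and the endothelial mean with none of the 4 genes. The endothelial mean lay above the vehicle mean by 0.83, 0.61, 0.35 and 0.34 in drug tumours 1 to 4. Tgfb3 and Tgfbr1 were both lowest of the drug group in replicate 1 and highest in replicate 4. The fibroblast mean was 0.57, 0.66 and 0.63 in replicates 1, 2 and 3 and 0.26 in replicate 4, so that replicate 2 was the highest tumour for it and for Zeb2.

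With group means subtracted, 24 correlations between the 4 genes and 6 marker lists were computed over the 8 tumours, and none passed after adjustment. Tgfb3 and the endothelial mean had a Pearson r of -0.75 (exact permutation within groups, two-sided, p = 0.0972, adjusted p = 0.778) and a Spearman rho of -0.69 (exact p = 0.191, adjusted p = 0.757), and r was -0.36 without SKI-606 replicates 1 and 4. For the fibroblast mean r was 0.14 with Zeb1 (exact p = 0.656, adjusted p = 0.906) and 0.27 with Zeb2 (exact p = 0.528, adjusted p = 0.906), with rho at 0.43 and 0.21 (exact p = 0.231 and 0.635, adjusted p = 0.757 and 0.896). Without the 2 tumours farthest from the median of each gene, these r were 0.12 and 0.40. Zeb2 and the basal mean had the smallest p, with r at 0.91 (exact p = 0.0122, adjusted p = 0.293) and rho at 0.81 (exact p = 0.0451, adjusted p = 0.541), and r was 0.93 without SKI-606 replicates 2 and 3. The keratin gene Krt17 had by far the largest SDs of the basal list, 1.92 in SKI-606 and 1.25 in vehicle tumours. The next largest was 0.57, for Itga6 in vehicle tumours. The basal mean may thus mostly follow 1 gene, which was not tested.

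The genes whose levels followed each of the 4 most closely within the groups were named by Pearson r over the 8 tumours with group means subtracted, among 4064 named genes. For Zeb1 they were Zbtb43, Cep120, Maf1, Srrm1 and Ptov1, with r between 0.97 and 0.98. For Zeb2 they were Get4 at 0.98, then Eno1, Baz1a, Nkd2 and Timp3 between 0.94 and 0.95. Of these, Timp3, a tissue inhibitor of metalloproteinases, was higher in SKI-606 tumours by 0.63 and the glycolytic gene Eno1 was at -0.50. Get4, Baz1a and Nkd2 were at -0.19, -0.13 and -0.23. For Tgfb3 they were Tmem127, Dync1li1, Klk1b1, Afap1 and Slc1a1, with r between 0.92 and 0.96. Klk1b1, a kallikrein, was at a difference of 1.58 and the glutamate transporter gene Slc1a1 at 0.95, while Tmem127, Dync1li1 and Afap1 were at 0.05, 0.04 and 0.09. For Tgfbr1 they included Lysmd2, Atpif1, Psip1 and U2surp, with r between 0.95 and 0.96, and these 4 were at differences below 0. An r over 0.9 was reached by 68 of the 4064 genes with Zeb1, 14 with Zeb2, 8 with Tgfb3 and 20 with Tgfbr1. The genes named here were picked for the highest of many coefficients over 8 tumours, and their correlations were not tested.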

How the data were processed

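RNA from mammary tumours of 4 SKI-606 and 4 vehicle samples was measured on 8 arrays of 1 chip. The labels give an input of 8 ng total RNA and a drug formulation in methocellulose (0.5%) with a detergent (0.4%). Titles gave the groups, and a vehicle sample whose title lacks a number is named 3. Per the file headers, the deposited signal table holds an average intensity and a detection p-value per probe and array, and its values, with a floor above 0 and other quantiles on each array, show no background subtraction or normalization. Another table the authors deposited gives intensity for 11434 probes, near equal in quantiles between arrays and so taken as normalized on a linear scale, by a step no source used here states, and used as an alternative. No source used here names the array software or the genome build. Other columns of per-sample values left aside numbered 0.

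Intensities were background-corrected, quantile-normalized and put on the log2 scale by the neqc function (limma 3.58.1, R 4.3.3, offset 16). The 4 bacterial control probes were included in that step and left out of the fits. The 12281 probes whose detection p was below 0.05 on 4 or more arrays were kept and compared by lmFit and eBayes with group alone, with Benjamini-Hochberg adjustment over all of them, after a test on simulated data. Probes were named where the zero-padded number in the identifier met a gene ID of RefSeq (GRCm38.p6), for 4638 kept probes and 4137 genes. A gene stands by its brightest kept probe. The 4 genes, the lists and the rule for named genes (all 4 genes, the 3 smallest p of each list, further genes of the TGF-beta, Smad and transition lists, and the 5 most correlated genes) were chosen with earlier results of these data known. The keratin genes were added as a check of the tissue. A few genes that the rule covers are not reported here. Summed signals are linear normalized values less the offset. Figures were drawn with matplotlib 3.10.9.

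Samples numbered 1, 2 and 4 in both groups share a number in their titles, and the main fit did not pair them. Correlations of their deviations from group means over the kept probes were 0.00442, 0.63 and -0.0183. The samples numbered 2 thus deviated alike, and each was the highest of its group for Zeb2 and for the basal mean. The cause of this likeness was not tested.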

Additional observations from a re-analysis of the deposited data

Results flagged for a closer look

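The mean of 6 basal epithelial markers in SKI-606 replicate 2, at 0.53 above the vehicle mean, stood far from the other 3 drug tumours, at -0.05, -0.13 and -0.16, with a gap of 0.842 of the group's range. Among these markers Krt17 had the largest SDs, 1.92 in SKI-606 and 1.25 in vehicle tumours, so the mean need not describe the whole list. SKI-606 replicate 2 was also the highest of all 8 tumours for Zeb2. It is also the tumour whose source name describes human islet cells. Of 20 groups of 4 values looked at in this way, chance flags about 1 in 20. Its part in the Zeb2 difference was measured only as the value without that tumour, 0.42 in place of 0.51.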

How the results depend on the processing

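The differences of Zeb1, Zeb2 and Tgfb3 stayed above 0 under the 19 alternatives run for each. They moved by less than 1 SD, taken as the larger of the 2 group SDs. Ranges with 1 array left out were 0.32 to 0.54 for Zeb1, 0.42 to 0.59 for Zeb2, 0.46 to 0.80 for Tgfb3 and 0.13 to 0.24 for Tgfbr1, whose difference turned to -0.0251 with median scaling, where the median of all probes moved to -0.12. The replicate block, run on the samples numbered 1, 2 and 4, gave 0.34, 0.55, 0.55 and 0.22 for Zeb1, Zeb2, Tgfb3 and Tgfbr1. With array weights the Tgfb3 difference was 0.84. Some of the alternatives could not move a gene's difference. The mean of a gene's kept probes gave the same values, since each gene has 1 kept probe. Detection on all 8 arrays, no filter on dim probes and an intensity trend with robust prior also gave the same values. They change only which probes are fitted or how variances are estimated.

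The count of 1 probe past the adjusted threshold was 0 with median scaling, with an offset of 50, with detection on all 8 arrays, with an intensity trend and robust prior and with the replicate block, 185 with array weights and 30 at an adjusted p of 0.1. It ran from 0 to 13 with 1 array left out, at 7 without SKI-606 replicate 1 and 13 without replicate 2. With array weights Fbln1, Robo4 and Prom1 passed among the list genes.

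Of 234 list medians recomputed, 220 moved by less than 1 SD between tumours and 14 by more. The SD was the larger of the 2 group SDs of the list mean. No filter on dim probes and an intensity trend with robust prior could not move these medians. With median scaling the medians were -0.083 for TGF-beta ligands, -0.0327 for receptors, -0.10 for inhibitors, -0.20 for Zeb-repressed epithelial genes, -0.39 for macrophage markers and -0.15 for luminal markers. With 1 array left out the ligand median ran from -0.0836 (without SKI-606 replicate 2) to 0.223, the receptor median from 0.016 (without vehicle replicate 4) to 0.117 and the luminal median from 0.0158 to 0.152 (without vehicle replicate 3). The receptor median was 0.14 in the authors' deposited values and 0.16 with detection on all 8 arrays, and the Zeb cofactor median was -0.20 in both. The luminal median was 0.15 with the replicate block. The cause of these moves was not tested.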
